A study of Mus musculus with 6 samples.

Results

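The genes described here code for 2 superfamilies of membrane carriers, the ATP-binding cassette (ABC) transporters of subfamilies A, B, C, D and G and the organic anion transporters of the Slco families. Members were taken by symbol, as every gene whose name begins with Abca, Abcb, Abcc, Abcd, Abcg or Slco1 to Slco6 followed by its number. The cholesterol exporters Abca1, Abcg1 and Abcg4 were left out by the same rule. This gave 57 of the 32285 genes listed, 43 of them ABC genes and 14 Slco genes. The rule itself uses symbols and no measured value, though it was set with earlier results of these data known.

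Nuclei came from frozen hippocampi of mice aged 18 to 20 months, and RNA was read from the 3' ends of transcripts in single nuclei. In the sevoflurane group, mice breathed the volatile anaesthetic sevoflurane at 2% together with 60% O2, for 6 h and at a flow of 1 L/min. In the control group, called oxygen here, mice breathed 60% O2 alone for as long and at the same flow. The strain and the number of animals behind a library are not given in the labels, so a p-value here weighs only library-to-library spread, which may be technical. Each group has 3 libraries. Replicates 1 and 2 are labelled male and replicate 3 female in both groups.

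ABC transporters use ATP to move lipids, drugs, conjugates and peptides across membranes, while Slco proteins carry bile salts, hormones and other organic anions without ATP. At the blood-brain barrier, endothelial cells of brain capillaries hold Abcb1a (P-glycoprotein), Abcg2 (breast cancer resistance protein) and Abcc4 as pumps that return drugs and conjugates to the blood, and Slco1a4 and Slco1c1 as uptake carriers for organic anions and thyroid hormone. Other members work inside the cell, in mitochondria, peroxisomes, lysosomes or lipid vesicles.

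Sequences upstream of Abcg2 and Abcc4 are shown because these are the members whose RNA passed the test between groups in endothelial-like nuclei. Each is the 250 bases before a RefSeq transcript start on GRCm38.p6, the start nearest to the annotated gene start whose 250 bases overlap no annotated exon. The Abcg2 stretch lies on the plus strand at chr6:58640296-58640545, inside the span of the gene, and has 67.6% G and C. The Abcc4 stretch lies on the minus strand at chr14:118706220-118706469, just before the gene, and has 72.0% G and C. Capitals mark matches on either strand to GCGTG (core of the xenobiotic response element), TGACNNNGC (core of the antioxidant response element) and GGGCGG (GC box).
Abcg2: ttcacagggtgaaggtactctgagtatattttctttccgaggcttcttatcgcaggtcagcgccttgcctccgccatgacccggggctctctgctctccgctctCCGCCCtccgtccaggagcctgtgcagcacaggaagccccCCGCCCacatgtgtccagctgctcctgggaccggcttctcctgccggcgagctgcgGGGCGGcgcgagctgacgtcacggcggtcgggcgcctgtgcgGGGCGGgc
Abcc4: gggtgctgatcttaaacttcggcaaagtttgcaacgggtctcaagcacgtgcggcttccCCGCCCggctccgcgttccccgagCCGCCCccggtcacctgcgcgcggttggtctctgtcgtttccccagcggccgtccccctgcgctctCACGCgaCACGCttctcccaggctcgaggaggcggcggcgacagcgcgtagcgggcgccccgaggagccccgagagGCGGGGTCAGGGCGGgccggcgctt
The Abcg2 stretch held 4 GC boxes and no match to the other motifs. The Abcc4 stretch held 2 matches to GCGTG, 1 to TGACNNNGC and 3 GC boxes, the last of which adjoins the TGACNNNGC match. Of 32851 RefSeq promoters of the same length, 28.2% held GCGTG, 10.2% TGACNNNGC and 32.7% GGGCGG. Among the 55 promoters of the 45 members that matched by symbol, the shares were 21.8%, 10.9% and 32.7%. A match is a description of letters and not a binding site.

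After filters, 52052 nuclei were kept, 7759 to 9749 per library, with medians of 4687 to 6089.5 unique molecular identifiers (UMIs) per nucleus. Nuclei were clustered without the transporter genes, and clusters were named from marker genes alone, which gave 21 classes written as X-like. Of these, 13 classes had at least 20 nuclei in each library and were tested. In the sevoflurane library labelled replicate 1, the X-inactivation RNA Xist stood at 1363 CPM (counts scaled to a fixed library total), against 0.515 to 1.21 CPM in the other 5 libraries, and Y-linked genes were near 0. The labelled sex went against these genes in 3 of the 6 libraries, and each called result described below is therefore also given without that library. The sevoflurane libraries held 0 choroid plexus-like nuclei of 27654 nuclei, which allows a share of up to 0.0108%, while the oxygen libraries held 61, 16 and 98. Of 52960 barcode sequences, 326 occurred in more than 1 library.

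Of the 57 members, 43 reached 10 CPM, as a mean over libraries, in at least 1 named class. They were 11 of 13 multidrug and conjugate efflux pumps, 7 of 8 Slco1 and Slco2 carriers, 4 of 6 carriers of the Slco3 to Slco6 families and both sulfonylurea receptors. They also included 9 of 15 lipid transporters of the Abca family, 1 of 4 bile and sterol exporters, all 5 mitochondrial and lysosomal Abcb genes and all 4 Abcd genes. Below that level in every class were Abca12, Abca13, Abca14, Abca15, Abca16, Abca17, Abcb5, Abcb11, Abcc2, Abcg5, Abcg8, Slco1a1, Slco6c1 and Slco6d1. Levels between classes are given as a description with no test, because the classes were made from the same nuclei.

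**Figure D1:**
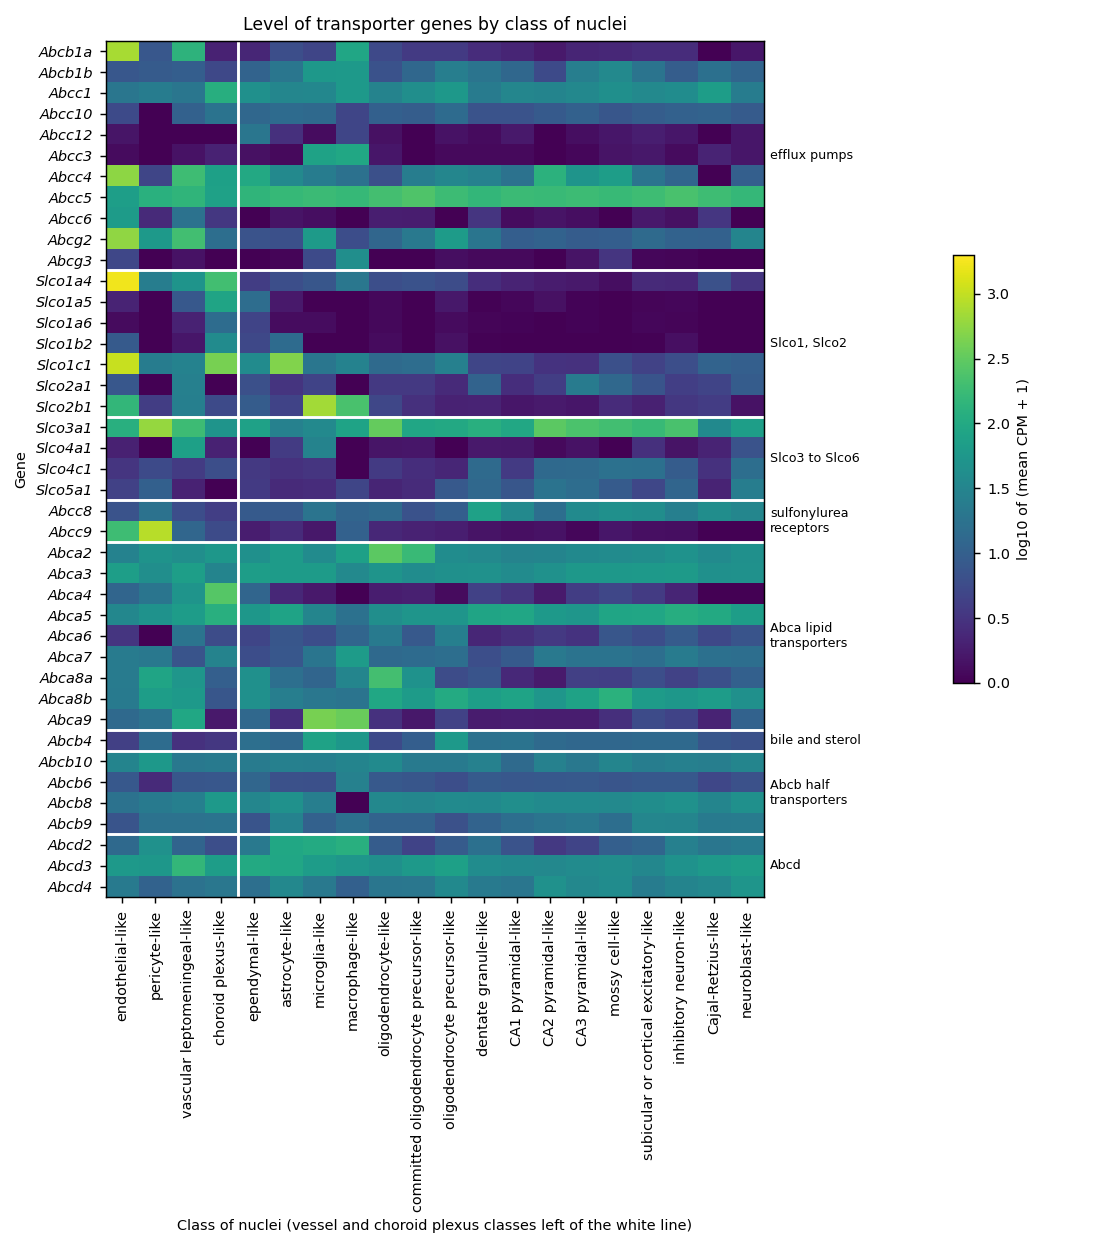
Level of 41 members that reached 10 CPM in a named class (rows) in 20 named classes (columns), as the log10 of mean CPM + 1 over libraries; smooth muscle-like nuclei, 16 in all, are left out. Vessel-associated and choroid plexus-like classes stand left of the white line, where Slco1a4, Abcb1a and Abcc9 are bright in few columns while Abcc5 and Abca3 are present across most columns.

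Endothelial-like nuclei were the tested class with the highest level for 9 of the 41 members that reached 10 CPM in a tested class. For 7 of these, no library of the next class reached the lowest endothelial-like library. All 10 endothelial markers met the naming rule, and Flt1 led the class. The pericyte marker Rgs5 was also among the leading genes, at 2700 to 3621 CPM. Endothelial-like nuclei numbered 58, 136 and 186 after sevoflurane and 169, 95 and 123 after oxygen, with 257377 to 797269 UMIs per library.

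Among the efflux pumps, Abcb1a stood at 738.3 ± 157.1 CPM (SD, n = 6) in endothelial-like nuclei. The next tested class, astrocyte-like, had 5.19 ± 4.18 CPM, a ratio of 142. Endothelial-like nuclei made up 1.47% of all nuclei and 0.885% of all UMIs, yet held 68.9% of the Abcb1a UMIs, from 59.4% to 79.7% in single libraries. Vascular leptomeningeal-like nuclei, the fibroblasts of vessel walls and meninges by their markers, had 133.8 ± 46.9 CPM of Abcb1a. The closely related gene Abcb1b followed another order, with 56.2 ± 9.68 CPM in microglia-like nuclei, the highest among tested classes. How reads shared by Abcb1a and Abcb1b were counted is not given in the sources used here, so the split between them is uncertain.

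The efflux pump Abcg2, which exports drugs, urate and sulfate conjugates, had 568.6 ± 169.0 CPM in endothelial-like nuclei. Oligodendrocyte precursor-like nuclei came next with 62.9 ± 7.22 CPM, a ratio of 9.04, and microglia-like nuclei had 62.7 ± 4.13 CPM. Of all Abcg2 UMIs, 26.3% lay in endothelial-like nuclei. Outside the tested classes, Abcg2 was at 199.0 ± 79.0 CPM in vascular leptomeningeal-like and at 58.3 ± 43.8 CPM in pericyte-like nuclei.

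Abcc4, an exporter of cyclic nucleotides, prostaglandins and conjugates, had 541.4 ± 172.5 CPM in endothelial-like nuclei and 130.2 ± 23.0 CPM in CA2 pyramidal-like nuclei, a ratio of 4.16. Of all its UMIs, 15.6% lay in endothelial-like nuclei. Abcc6, known for its part in preventing ectopic calcification, had 63.7 ± 33.4 CPM in endothelial-like nuclei against 2.19 ± 0.969 CPM in dentate granule-like nuclei. Its endothelial-like libraries ranged from 27.2 to 119.8 CPM, all above the dentate granule-like ones.

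Of the organic anion carriers, Slco1a4 (Oatp1a4, an uptake carrier of bile salts, steroid conjugates and drugs) was at 1682 ± 361.2 CPM in endothelial-like nuclei. The next tested class, microglia-like, had 6.54 ± 5.54 CPM, a ratio of 257. Endothelial-like nuclei held 81.9% of all its UMIs, the highest share among the 9 genes, with 74.7% to 86.9% in single libraries. Slco1c1, which carries thyroxine, had 1057 ± 340.2 CPM in endothelial-like nuclei and 470.8 ± 84.5 CPM in astrocyte-like nuclei. The ratio was 2.25, and no astrocyte-like library, at most 628.5 CPM, reached the lowest endothelial-like library at 683.8 CPM.

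Choroid plexus-like nuclei, found in the 3 oxygen libraries alone, had their own set of carriers. Slco1c1 was at 424.9 ± 75.1 CPM (SD, n = 3) there and Slco1a4 at 197.2 ± 51.1 CPM. Slco1a5, Slco1b2 and Slco1a6, close relatives of Slco1a4, reached their highest means in this class, with 83.3 ± 47.6, 38.0 ± 22.4 and 13.9 CPM. Abca4, a lipid flippase of the retina, was at 266.6 ± 78.7 CPM and Abcc1, an exporter of glutathione conjugates, at 117.5 ± 8.23 CPM. In the oxygen libraries, choroid plexus-like nuclei were 0.717% of nuclei and held 46.7% of the Slco1a5 UMIs.

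The sulfonylurea receptors Abcc9 and Abcc8 are the regulatory subunits of ATP-sensitive potassium channels. Abcc9 (SUR2) was at 880.2 ± 342.9 CPM (SD, n = 6) in pericyte-like nuclei, of which there were 11 to 54 per library. It was at 188.1 ± 40.6 CPM in endothelial-like nuclei and at 1.56 ± 1.33 CPM in astrocyte-like nuclei, the next tested class. Summed pericyte markers came to 4271 to 6036 CPM in endothelial-like nuclei, and the part of pericyte RNA in the endothelial-like Abcc9 level was not tested. Abcc8 (SUR1), in contrast, was highest in dentate granule-like nuclei, at 75.5 ± 3.08 CPM, and was at 40.5 ± 7.22 CPM in subicular or cortical excitatory-like nuclei.

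Microglia-like nuclei were also the highest tested class for 9 members, 6 of them with no overlap with the next class. Slco2b1, a carrier of steroid sulfates, was at 686.4 ± 89.6 CPM, against 150.5 ± 39.6 CPM in endothelial-like nuclei. Abca9, a gene of the Abca lipid transporters, was at 423.9 ± 61.5 CPM, against 12.3 ± 8.68 CPM in endothelial-like nuclei. Abcc3, an exporter of glucuronides, was at 78.9 ± 24.3 CPM in microglia-like nuclei and at 0.638 ± 0.360 CPM in subicular or cortical excitatory-like nuclei, the next tested class. Abcb1b, Abcb4, Abcd2 and Slco4a1 were also highest in microglia-like nuclei among the tested classes. Classes too small to test had higher mean levels for 3 of them. Slco4a1 averaged 75.1 CPM in vascular leptomeningeal-like nuclei, with libraries from 0 to 125.3 CPM, against 28.9 CPM in microglia-like nuclei, with libraries from 14.0 to 49.6 CPM. In macrophage-like nuclei Abcb1b was at 60.4 ± 48.4 CPM against 56.2 ± 9.68 CPM, and Abcd2 was at 118.9 ± 125.3 CPM against 102.4 ± 35.9 CPM.

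For the genes that follow, a class that led was the highest among the tested classes only. Oligodendrocyte-like nuclei led for Abca2, a transporter of myelin lipids, at 289.6 ± 36.4 CPM, followed by committed oligodendrocyte precursor-like nuclei at 172.1 ± 42.2 CPM. They also led for Abca8a at 203.9 ± 44.7 CPM, for Slco3a1 at 329.0 ± 58.7 CPM and for Abcb10. Slco3a1 was higher still in pericyte-like nuclei, at 604.6 ± 230.8 CPM. Ependymal-like nuclei, the ciliated lining of the ventricles, led for Abcc12 at 18.5 ± 5.49 CPM, Slco1a5 at 14.0 ± 6.63 CPM, Abcb6 and Abcd3. Astrocyte-like nuclei led for Slco1b2 and Abcc10, oligodendrocyte precursor-like nuclei for Abca6, Abca8b and Abcc1, and committed oligodendrocyte precursor-like nuclei for Abcc5 at 244.2 ± 30.8 CPM. For each of these genes the libraries overlapped with the next class, and Abcc10 was nearly level, at 13.22 against 13.19 CPM. Slco1a6 and Abcg3 reached 10 CPM only in classes too small to test, choroid plexus-like and macrophage-like. Among the tested classes, neuronal ones led for Abcc8, Abca5, Abca7, Abcb8, Abcb9, Abcd4, Slco2a1, Slco4c1 and Slco5a1. The next tested class was nearly level for Abcb8 (45.48 against 45.1 CPM) and Abca7 (22.76 against 22.48 CPM), with overlap. The prostaglandin carrier Slco2a1 in CA3 pyramidal-like nuclei, 22.6 ± 3.96 CPM, was followed by dentate granule-like nuclei at 10.1 ± 1.96 CPM without overlap. Classes too small to test stood higher for several of the genes above, as CPM pooled over libraries. Abca7 was at 52.1 CPM in macrophage-like and Abcb8 at 54.2 CPM in smooth muscle-like nuclei. In vascular leptomeningeal-like nuclei Abcd3 was at 177.8 and Slco2a1 at 26.1 CPM.

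For sevoflurane against oxygen, UMIs were summed per library and class and tested gene by gene. A call means an adjusted p under 0.05, with the adjustment over all genes of the class. CPM values from here on are on normalised library sizes. In endothelial-like nuclei, 20 members could be tested, of which 2 were lower and 0 higher after sevoflurane. Over all 8375 genes tested there, 3.41% were called, 1.89% higher and 1.53% lower. The group values of 7 members did not overlap, all of them lower after sevoflurane, where 19.5% of all genes did not overlap and 9.8% did so with lower values. At an unadjusted p under 0.05 stood 8 members, all lower, where 14.2% of all genes did. The median log2 change of the 20 members was -0.29 and that of all genes was 0.00.

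Abcg2 was at 423.5, 438.1 and 483.9 CPM in sevoflurane replicates 1 to 3, against 784.9, 807.6 and 665.0 CPM after oxygen. All 3 sevoflurane libraries lay below all 3 oxygen libraries, with a log2 change of -0.74 ± 0.18 (SE) and an adjusted p of 0.0189. Without the sevoflurane library labelled replicate 1, it was -0.70 with an adjusted p of 0.0304. The call was lost without sevoflurane replicate 2 (adjusted p 0.11) and without oxygen replicate 1 (adjusted p 0.0917).

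Abcc4 was at 398.1, 365.4 and 536.7 CPM after sevoflurane and at 833.6, 593.2 and 703.9 CPM after oxygen. The groups did not overlap, though sevoflurane replicate 3 came close to oxygen replicate 2. The log2 change was -0.70 ± 0.19 (SE) with an adjusted p of 0.0432. Without the sevoflurane library labelled replicate 1 it was -0.64 with an adjusted p of 0.0755. The call was also lost without sevoflurane replicate 2 (adjusted p 0.276), oxygen replicate 1 (0.238) or oxygen replicate 3 (0.145). With normalization offsets for the genomic span of genes, Abcc4 was not called either. In the endothelial-like subcluster with the most UMIs per nucleus, 236 nuclei, 7 pericyte markers also met the naming rule. The pericyte marker Rgs5 and the haemoglobin gene Hbb-bs were among its leading genes. There, in a fit added after the results were seen, Abcg2 changed by -0.70 (adjusted p 0.0308) and Abcc4 by -0.87 (adjusted p 0.033). With a stricter filter on nuclei neither was called, Abcg2 at -0.94 with an adjusted p of 0.215 and Abcc4 at -0.38 with 0.747.

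Abcb1a, Slco1a4 and Slco1c1 had lower means after sevoflurane but did not pass the test. Abcb1a was at 686.1, 610.5 and 654.4 CPM after sevoflurane and at 901.4, 1028 and 802.1 CPM after oxygen. Its groups did not overlap, with a log2 change of -0.49 ± 0.18 (SE) and an adjusted p of 0.165. Slco1a4 was at 1393, 1553 and 1458 CPM against 2132, 2278 and 1852 CPM. That is a log2 change of -0.51 ± 0.18 (SE) with an adjusted p of 0.14, again without overlap. Slco1c1 was at 745.4, 1024 and 946.6 CPM against 1260, 1752 and 972.0 CPM. The groups overlapped at oxygen replicate 3, and the adjusted p was 0.19.

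The other 15 members tested in endothelial-like nuclei had log2 changes from -1.06 for Abca8a (adjusted p 0.158) to 0.36 for Abcc6 (adjusted p 0.806). Abcc9, at 173.6, 155.7 and 185.1 CPM after sevoflurane and 211.0, 275.0 and 192.3 CPM after oxygen, had a log2 change of -0.39 and an adjusted p of 0.338. Of the 20 members, 5 had a log2 change above 0, namely Abca3, Abca5, Abcb10, Abcc5 and Abcc6.

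Marker genes were also read in these nuclei on the same normalised library sizes, without a test. Summed endothelial markers overlapped, at 10390, 8796 and 9056 CPM in the sevoflurane libraries and 10640, 11160 and 9904 CPM after oxygen. Among single endothelial markers, the groups did not overlap for Emcn, Tek and Pecam1, where 19.5% of all genes tested there did not overlap. Emcn was at 245.6 to 253.3 CPM after sevoflurane against 372.4 to 466.5 CPM, and Tek at 406.6 to 442.3 against 470.6 to 501.3 CPM. Pecam1 was at 613.4 to 855.5 CPM against 439.7 to 612.7 CPM, so its groups nearly touched. The pericyte marker Atp13a5 was at 377.9 to 448.9 against 464.5 to 597.6 CPM. Summed pericyte markers overlapped, at 4546 to 5065 and 4541 to 6331 CPM. Summed choroid plexus markers were at 20.8 to 25.4 CPM after sevoflurane and 114.7 to 912.6 CPM after oxygen, where Ttr alone was at 90.9 to 867.6 CPM. The part of these differences in the transporter values was not tested.

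**Figure D2:**
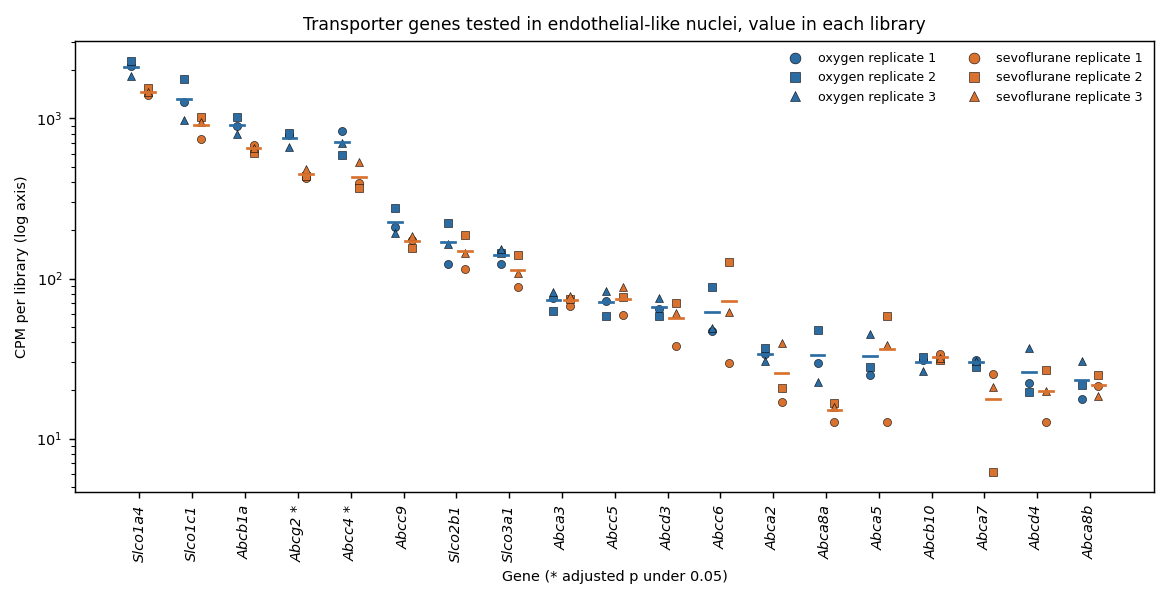
CPM on normalised library sizes (log axis) of 19 members tested in endothelial-like nuclei, 1 point per library, 3 sevoflurane and 3 oxygen. Abcg2 and Abcc4, the called genes, show the sevoflurane points between 365.4 and 536.7 CPM and the oxygen points between 593.2 and 833.6 CPM.

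Other carriers of the barrier were read from a list of 18 genes, of which 16 were tested in endothelial-like nuclei, with 1 called higher and 1 called lower. The glucose carrier Slc2a1 was at 3329, 2743 and 3023 CPM after sevoflurane against 1760, 1977 and 1725 CPM after oxygen. Its log2 change was 0.73 ± 0.18 (SE) with an adjusted p of 0.0207. Without the sevoflurane library labelled replicate 1 it was 0.67 with an adjusted p of 0.0386. The Slc2a1 call was lost without sevoflurane replicate 2 (adjusted p 0.0595), sevoflurane replicate 3 (0.0554), oxygen replicate 1 (0.0902) or oxygen replicate 3 (0.149), and with the stricter filter on nuclei, where the change was 0.42 (0.669). Of 13 regulators of transporter genes, 6 were tested in these nuclei and 0 were called by edgeR, with 1 at an unadjusted p under 0.05.

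Over the 13 tested classes, 45 members were tested in at least 1 class, giving 333 pairs of a member and a class. Of these pairs, 3 were called higher and 7 lower, or 3.00%. The background over all genes and the same classes was 1.65%, with 0.522% higher and 1.13% lower. The calls lay in 5 classes and on 9 members, and in each called pair the groups did not overlap. In the other 8 classes no member was called. The share of all genes called there was 2.14% in CA1 pyramidal-like, 2.05% in astrocyte-like, 0.925% in oligodendrocyte precursor-like, 0.922% in oligodendrocyte-like, 0.539% in microglia-like, 0.482% in CA2 pyramidal-like, 0.45% in ependymal-like and 0% in committed oligodendrocyte precursor-like nuclei. At an unadjusted p under 0.05 in edgeR stood 26 of the 174 pairs of these classes, or 14.9%, where 12.4% of the pairs of all genes did. DESeq2 called 1 of the 174 pairs, and the share of all genes that it called was not read.

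**Figure D3:**
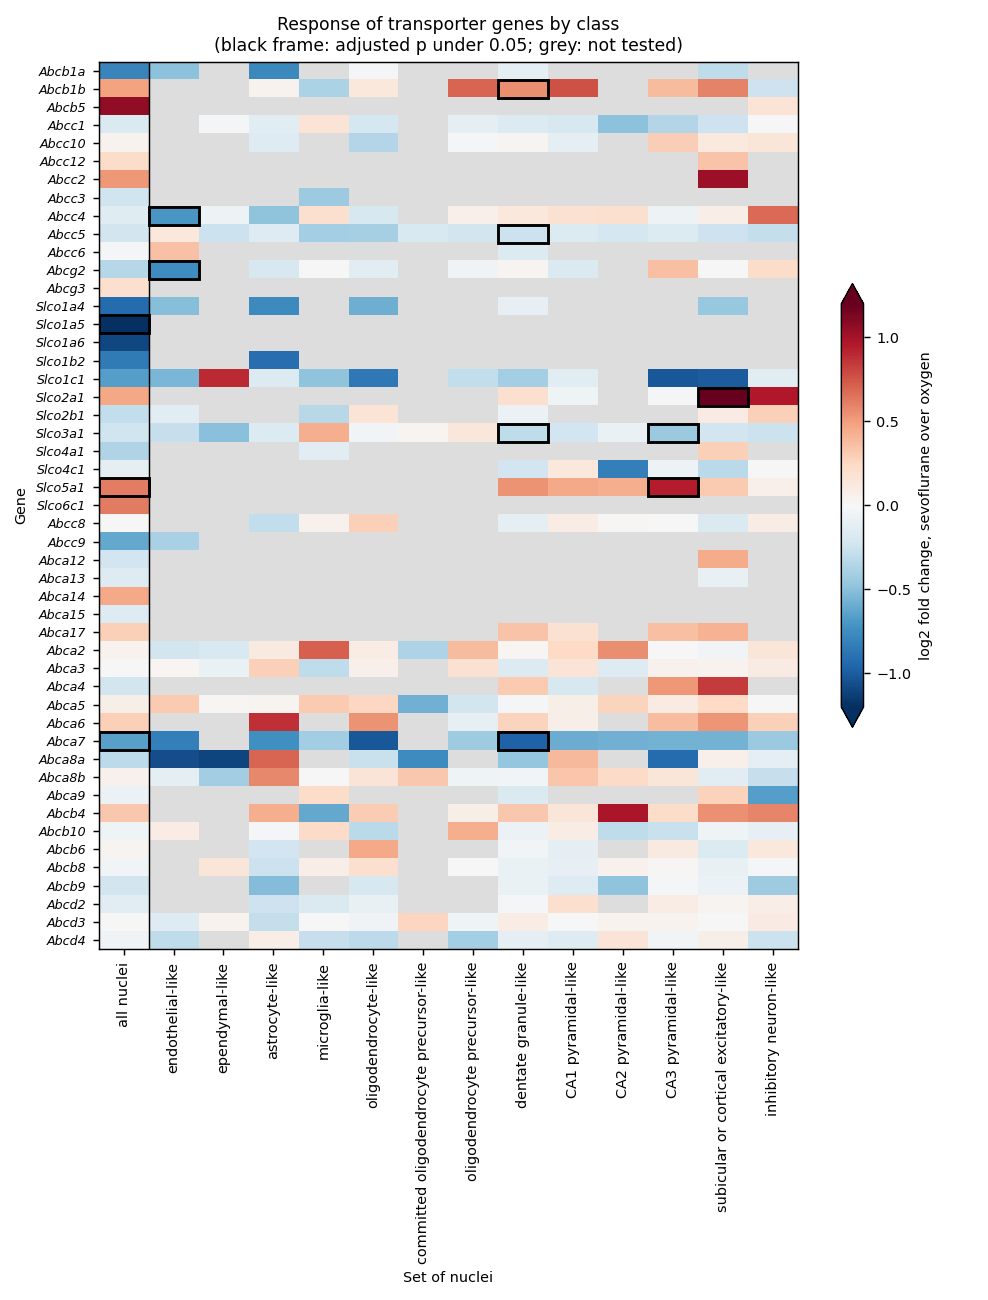
Log2 change, sevoflurane over oxygen, of 49 tested members (rows) in 13 tested classes and over all nuclei (columns), with called pairs framed in black and untested pairs in grey. The framed cells are few and lie mainly in the dentate granule-like, all nuclei, CA3 pyramidal-like and endothelial-like columns, and the row of Abca7 is below 0 in every tested class.

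Dentate granule-like nuclei, the principal neurons of the dentate gyrus, were the class with the most calls, 4 of 36 members tested (1 higher and 3 lower), against 4.57% of all genes (1.42% higher and 3.15% lower). They form several clusters. The largest held 1196, 1218 and 752 of 2115, 1862 and 1633 nuclei after sevoflurane, and 471, 847 and 567 of 1041, 1945 and 1323 after oxygen. From the sum of a class with several clusters alone, a shift between clusters and a change of RNA per cell cannot be told apart. Fits of single clusters were run after the results were seen, and their values for the members in this class are not given here. Abca7 (chr10:79996494-80015572, plus strand, mm10), a lipid transporter whose human counterpart carries risk variants for Alzheimer's disease, was at 3.66, 3.42 and 3.51 CPM after sevoflurane and at 7.16, 6.51 and 7.1 CPM after oxygen. Each sevoflurane library lay well below each oxygen library, and the log2 change was -0.97 ± 0.16 (SE), adjusted p 0.00993, from 409 UMIs in all 6 libraries. Without the sevoflurane library labelled replicate 1 it was -1.0 with an adjusted p of 0.0173, and the call held without each of the 6 libraries in turn.

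Slco3a1 (chr7:74275419-74554780, minus strand), a carrier of prostaglandins and thyroxine, was at 104.2, 113.3 and 110.2 CPM after sevoflurane and at 138.9, 131.1 and 135.5 CPM after oxygen in dentate granule-like nuclei. The groups did not overlap, with a log2 change of -0.31 ± 0.06 (SE), adjusted p 0.0262, and 0.0453 without the sevoflurane library labelled replicate 1. With normalization offsets for the genomic span of genes, the log2 change was -0.13 and the adjusted p 0.299, so this call depends on the scaling. The call was also lost without sevoflurane replicate 2 (adjusted p 0.0508) or any of the oxygen replicates 1 to 3 (0.0929, 0.0788 and 0.0902).

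Abcc5 (chr16:20331303-20426394, minus strand), an exporter of cyclic nucleotides and haem, was at 141.0, 137.4 and 143.5 CPM after sevoflurane in dentate granule-like nuclei and at 160.5, 174.6 and 168.8 CPM after oxygen. The groups did not overlap, and the log2 change was -0.26 ± 0.06 (SE), adjusted p 0.0464. It was not called without the sevoflurane library labelled replicate 1, with an adjusted p of 0.062, nor without any other single library, with adjusted p values of 0.0511 to 0.175. With gene span offsets the adjusted p was 0.107.

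Abcb1b (chr5:8798147-8866315, plus strand), the pump paired with Abcb1a, moved the other way in dentate granule-like nuclei. It was at 23.0, 17.3 and 22.0 CPM after sevoflurane and at 14.4, 13.5 and 14.6 CPM after oxygen, and replicate 2 was the lowest sevoflurane library. The log2 change was 0.56 ± 0.12 (SE), adjusted p 0.0329, and 0.47 with an adjusted p of 0.0888 without the sevoflurane library labelled replicate 1. The call was also lost without sevoflurane replicate 3 (adjusted p 0.0766) or any of the oxygen replicates 1 to 3 (0.0922, 0.143 and 0.0994). A pair of annotated genes overlaps Abcb1b, 1 on each strand, and whether strand was used in counting is not given in the sources used here.

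CA3 pyramidal-like nuclei had 1 member higher and 1 lower of 31 tested, against 1.29% of all genes called (0.183% higher and 1.1% lower). Slco5a1 (chr1:12866549-12992650, minus strand), an organic anion transporter family member with little known of its cargo, was at 20.5, 16.2 and 18.6 CPM after sevoflurane and at 9.72, 8.72 and 10.4 CPM after oxygen. All sevoflurane libraries lay above all oxygen libraries, with a log2 change of 0.95 ± 0.16 (SE), adjusted p 0.0153, from 587 UMIs, and 0.87 with an adjusted p of 0.0295 without the sevoflurane library labelled replicate 1. The call was lost without oxygen replicate 1 (adjusted p 0.0523) or oxygen replicate 2 (0.0774).

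In the same CA3 pyramidal-like nuclei, Slco3a1 was at 181.9, 212.1 and 197.3 CPM after sevoflurane and at 282.3, 270.3 and 251.4 CPM after oxygen, so that it was lower there as in dentate granule-like nuclei. The log2 change was -0.44 ± 0.08 (SE), adjusted p 0.0187, and -0.38 with 0.0421 without the sevoflurane library labelled replicate 1. With gene span offsets it was -0.29 with an adjusted p of 0.105. The call was also lost without sevoflurane replicate 3 (adjusted p 0.0528), oxygen replicate 1 (0.0897) or oxygen replicate 2 (0.0786). Slco3a1 had log2 changes below 0 in 10 of 13 classes (8 with gene span offsets), with no overlap in 5 of them, and the highest value was 0.44, in microglia-like nuclei.

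Subicular or cortical excitatory-like nuclei had 1 called member of 40 tested, against 1.05% of all genes called and 0.334% called higher. Slco2a1 (chr9:102988712-103096002, plus strand), which takes up prostaglandins for breakdown, was at 7.54, 8.75 and 9.81 CPM after sevoflurane and at 4.21, 2.60 and 3.08 CPM after oxygen. The groups did not overlap, and the log2 change was 1.41 ± 0.22 (SE), adjusted p 0.025, from 346 UMIs. It was 1.51 with an adjusted p of 0.0442 without the sevoflurane library labelled replicate 1. The call was lost without any of the oxygen replicates 1 to 3 (adjusted p 0.0516, 0.12 and 0.0969). Of 8 prostaglandin genes, 6 were tested in these nuclei and 0 were called by edgeR, with 0 at an unadjusted p under 0.05.

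**Figure D4:**
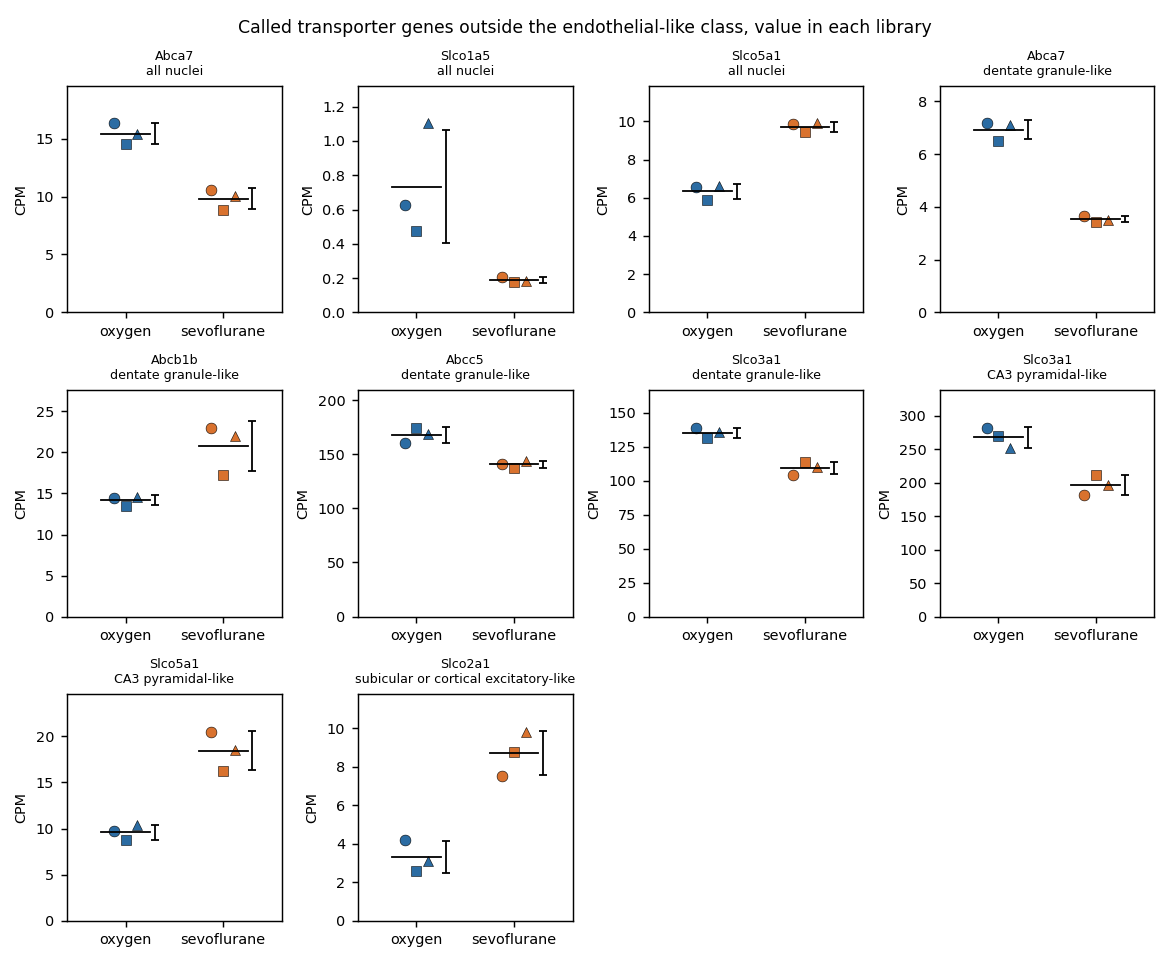
CPM per library for 10 called results outside endothelial-like nuclei, each panel with the 3 sevoflurane and 3 oxygen libraries, the mean as a line and the SD as a bar. In each panel the groups do not overlap, and the panels of Slco5a1, Slco2a1 and Abcb1b show higher sevoflurane points while the others show lower ones.

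Over all nuclei together, 51 members were tested, 1 higher and 2 lower, against 2.07% of all genes (0.793% higher and 1.28% lower). In such sums, fewer cells of a type and less RNA per cell cannot be told apart. Abca7 was at 10.6, 8.81 and 10.1 CPM after sevoflurane and at 16.3, 14.6 and 15.4 CPM after oxygen, a log2 change of -0.65 ± 0.10 (SE) with an adjusted p of 0.0281. Slco5a1 was at 9.84, 9.43 and 9.89 CPM against 6.55, 5.90 and 6.59 CPM, a log2 change of 0.61 ± 0.09 (SE) with an adjusted p of 0.0285. Neither overlapped between groups. Without the sevoflurane library labelled replicate 1 the adjusted p was 0.0369 for Abca7 and 0.0519 for Slco5a1. Without any other single library neither was called, with adjusted p values of 0.058 to 0.101 for Abca7 and 0.0627 to 0.101 for Slco5a1.

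Slco1a5 (chr6:142234227-142322981, minus strand), an organic anion carrier, was at 0.207, 0.179 and 0.180 CPM after sevoflurane and at 0.625, 0.475 and 1.10 CPM after oxygen over all nuclei, from 160 UMIs. The log2 change was -1.94 ± 0.37 (SE), adjusted p 0.0453, and 0.0891 without the sevoflurane library labelled replicate 1. Without any other single library it was 0.0662 to 0.114. Its highest class, choroid plexus-like, was present in oxygen libraries alone. Without choroid plexus-like nuclei the log2 change was -1.04 and the adjusted p 0.16, so the call was lost with them.

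Some members had the same sign in most classes, though the classes of a library share its free RNA and preparation and are not independent. Abca7 had a log2 change below 0 in all 11 classes tested, from -1.02 in oligodendrocyte-like to -0.42 in microglia-like nuclei, with no overlap between groups in 8. Over all genes and tested classes, the groups did not overlap with lower sevoflurane values in 10.1% of pairs and with higher ones in 8.76%. Abcc5 was below 0 in 12 of 13 classes, with no overlap in 8. Slco1c1 was below 0 in 10 of 11 classes and Abcb9 in 8 of 8. Abcb4, a phospholipid flippase, was above 0 in 9 of 10 classes and Slco5a1 in 6 of 6, with no overlap in 4 and 3. Abcb1b was above 0 in 7 of 9 classes. These members were picked for such counts, and the share of all genes with counts as uneven was not read. The 10.1% and 8.76% are shares of single pairs and give no background for a count over classes. The counts of classes above and below 0 were the same with DESeq2 and with gene span offsets. Overlap was not read under these settings.

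Whether a response differed between classes was tested on differences within each library. In endothelial-like minus astrocyte-like nuclei, 17 members were tested and 0 were called, against 1.53% of all genes, with 2 at an unadjusted p under 0.05 in limma. The difference was -0.29 ± 0.34 (SE) for Abcg2 and -0.25 ± 0.21 for Abcc4, and -1.63 ± 0.45 (adjusted p 0.0879) for the lipid transporter Abca8a. In subicular or cortical excitatory-like minus dentate granule-like nuclei, 35 were tested and 0 were called, against 0.238% of all genes, with 3 at an unadjusted p under 0.05. There the difference for Slco2a1 was 1.16 ± 0.29 (adjusted p 0.196). In CA3 pyramidal-like minus dentate granule-like nuclei, 31 were tested and 0 were called, against 0.852% of all genes, with 3 at an unadjusted p under 0.05. The difference for Slco5a1 was 0.39, with an adjusted p of 0.47. These tests leave it undecided whether the classes responded alike.

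Among the other lists, 12 of 13 regulators were tested in dentate granule-like nuclei and 1 was called, against 4.57% of all genes. There Ctnnb1, the beta-catenin of the Wnt pathway, had a log2 change of 0.28 (adjusted p 0.0457). The call was lost with DESeq2 (adjusted p 0.0844) and with gene span offsets (0.065). The change of Ctnnb1 without the sevoflurane library labelled replicate 1 was 0.31 with an adjusted p of 0.051, and without any other single library the adjusted p was 0.0897 to 0.197. Thrb, a thyroid hormone receptor gene, was called lower over all nuclei (-0.37, adjusted p 0.0451) and in inhibitory neuron-like (-0.47, 0.00699), oligodendrocyte-like (-0.85, 0.0253) and oligodendrocyte precursor-like nuclei (-0.57, 0.0213). Thrb without the sevoflurane library labelled replicate 1 was at -0.42 (adjusted p 0.0457) over all nuclei, -0.49 (0.0118) in inhibitory neuron-like, -0.55 (0.0537) in oligodendrocyte precursor-like and -0.68 (0.0383) in oligodendrocyte-like nuclei. In inhibitory neuron-like nuclei Thrb was called without each library in turn, with adjusted p-values of 0.0118 to 0.0426. Over all nuclei the Thrb call was lost without any 1 of the other 5 libraries (0.0699 to 0.144). It was lost in oligodendrocyte-like nuclei without sevoflurane replicate 2 (0.0792) or oxygen replicate 1 (0.115), 2 (0.11) or 3 (0.0934), and in oligodendrocyte precursor-like nuclei without oxygen replicate 1 (0.124) or 2 (0.105). With gene span offsets the Thrb call was lost over all nuclei (-0.19, adjusted p 0.268) and in oligodendrocyte precursor-like nuclei (-0.38, 0.213). It was also lost in inhibitory neuron-like nuclei (-0.31, 0.0537) and kept in oligodendrocyte-like nuclei (-0.66, 0.0491). Of the potassium channel partners of the sulfonylurea receptors, 2 genes, 0 were called in any tested class by edgeR, with 0 at an unadjusted p under 0.05.

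**Figure D5:**
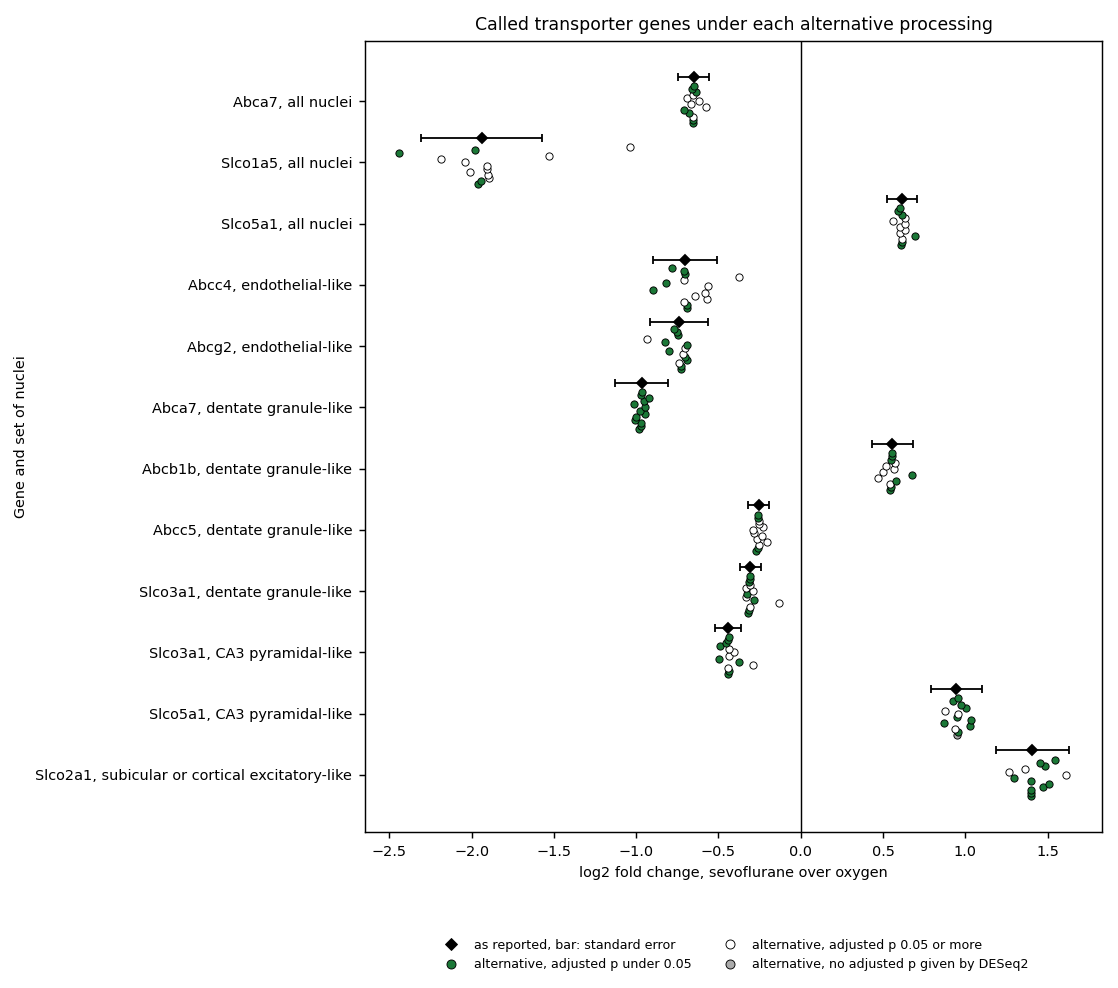
Log2 change, sevoflurane over oxygen, of 12 called results (rows) under the reported setting with its SE and under each alternative, marked by whether the adjusted p stayed under 0.05. Each result kept its sign under every alternative drawn, and the settings with an adjusted p under 0.05 were 13 of 13 for Abca7 in dentate granule-like nuclei but 4 of 13 for Abcc5 in the same nuclei and for Slco1a5 over all nuclei.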

How the data were processed

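The values deposited by the authors are raw UMI counts per gene and barcode, made with fastp and Cell Ranger 7.1.0 on mm10, per the submitters' processing notes. Which annotation was used, and whether introns and strand entered the counting, is not given in the sources used here. Deposited totals were 56334621 to 72636984 UMIs per library, and the number of UMIs sets the precision. Of 53824 barcodes, 53287 passed the filters (at least 500 UMIs, at least 300 genes, at most 5% mitochondrial UMIs), and 1235 doublets (Scrublet score over 0.322) were removed. Leiden clusters (scanpy 1.11.5, resolution 1.0, transporter genes left out) were 51, of which 35 were named by at least 3 markers and 16, with 10031 nuclei, stayed unnamed.

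UMIs summed per library and class were tested with edgeR 4.0.16 (quasi-likelihood, robust, TMM, filterByExpr, treatment as the only term, Benjamini-Hochberg over all genes of the class). The SE is the absolute log2 change divided by the square root of F. Differences between classes were tested with limma 3.58.1, and DESeq2 1.42.0 was an alternative. Levels in the map are CPM of raw totals. Intervals and limits cover counting error only, and the limit for a count of 0 is 3 counts. Scripts were tested on simulated data. Members with an adjusted p under 0.05 were named in full. The members, lists and tests were chosen with earlier results of these data known. Results of some genes, 1 called pair of a gene and a class among them, are not reported here, though counts over all members include them.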

Additional observations from a re-analysis of the deposited data

Results flagged for a closer look

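For 6 members, every sevoflurane library lay above every oxygen library in some classes and below every oxygen library in others. These are 16.2% of the 37 members tested in at least 2 classes, and the same held for 12.1% of the 16154 genes so tested. The difference between the classes was not tested for these pairs, and many pairs of classes were looked at. Values are log2 changes, sevoflurane over oxygen. The drug pump Abcb1b was at 0.56 in dentate granule-like, 0.70 in oligodendrocyte precursor-like and 0.76 in CA1 pyramidal-like nuclei, and at -0.38 in microglia-like nuclei. Abcg2 was at 0.36 in CA3 pyramidal-like and at -0.74 in endothelial-like nuclei. Abcc4 was at 0.19 in CA1 pyramidal-like and 0.68 in inhibitory neuron-like nuclei, against -0.70 in endothelial-like and -0.48 in astrocyte-like nuclei. Among the lipid transporters, Abca8a was at 0.70 in astrocyte-like and -0.92 in CA3 pyramidal-like nuclei. Abca5 was at 0.25 in oligodendrocyte-like nuclei, at 0.24 in subicular or cortical excitatory-like nuclei and at -0.22 in oligodendrocyte precursor-like nuclei. Abca3 was at 0.16 in CA1 pyramidal-like and at -0.31 in microglia-like nuclei.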

How the results depend on the processing

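The reported counts were 2 members called in endothelial-like nuclei, 10 pairs of a member and a tested class, 3 members over all nuclei, and 0 in each difference of response. Leaving out 1 library at a time gave 0 to 2 called members in endothelial-like nuclei, 1 to 12 pairs, 0 to 1 members over all nuclei, and 0 to 1 in the difference of subicular or cortical excitatory-like minus dentate granule-like nuclei. Fewer samples enter such fits. With the stricter filter on nuclei, which left 12 to 58 endothelial-like nuclei per library, 0 members were called there, and with gene span offsets 1 was, with 5 pairs over all tested classes. With no filter on low counts, 22 of 657 pairs were called. DESeq2 called 9 members over all nuclei. Shares of all genes called were read in the reported setting only, so the counts under alternatives have no background beside them. Deviations from the group means of same-numbered libraries had correlations of -0.0686, 0.0299 and 0.0386 over all nuclei. In endothelial-like nuclei these were -0.131, -0.0935 and 0.0744. With 3 libraries per group, such values cannot decide whether the numbers pair the libraries. With the replicate block, 0 members were called in endothelial-like nuclei, 2 pairs over all tested classes and 0 over all nuclei. The 13 called log2 changes kept their sign in each alternative run. No call of a member that had an adjusted p was lost under DESeq2, no filter on low counts or kept doublets. The members highest in endothelial-like nuclei numbered 7 to 10 under the alternatives. For single members, settings by cluster, at resolution 2.0, without division of the vessel clusters, and without choroid plexus-like nuclei were chosen after seeing the data. Endothelial-like nuclei are few, and the depth of their sums limits which members could be tested there.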
